A study of Mus musculus with 2 samples.

Results

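General capillary endothelial cells were described among mCherry-positive lung cells of aged mice. The class was chosen on measured values: cells entered it when the mean deposited natural-log value of Cldn5, Cdh5, Ramp2 and Egfl7 was 2 or more, the mean of Car4, Ednrb and Kitl (the Car4 score) was below 2, and the mean of Gpihbp1, Kit and Sema3c was at least the value of Vwf. This selected 57 of 1344 cells, or 57 of the 611 endothelial cells. The other 554 endothelial cells comprised 532 Car4-high cells, with a Car4 score of 2 or more, and 22 Vwf-high cells, with a lower Car4 score and a Vwf value above their Gpihbp1, Kit and Sema3c mean. All cells came from 1 kind of animal, p16-FDR mice on the C57BL/6 strain aged 20 to 22 months, whose reporter allele carries an FLP recombinase and a diphtheria toxin receptor joined to mCherry. There was no untreated, young or mCherry-negative group, so every cell had been sorted on the same reporter, and no condition was compared. Cells were run on the 10x Genomics droplet platform with the 3' v3 chemistry, which counts each captured RNA molecule as 1 unique molecular identifier (UMI) near its 3' end. The 2 samples were deposited as 1 table, whose cell names carry 2 library numbers that match neither sample title. They were therefore treated as 1 sample, with values per library given as within-batch values and no p-values.

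General capillary cells line the alveolar capillaries of the lung together with larger Car4-positive capillary cells, often called aerocytes. They are known as the progenitor-like capillary cell of the alveolus, able to renew themselves and to give rise to the Car4-positive kind after injury. Their usual marks are GPIHBP1, which holds lipoprotein lipase at the vessel wall, the receptor tyrosine kinase KIT, whose ligand is encoded by Kitl in the Car4-positive cells, and PLVAP, which forms the diaphragms of caveolae and fenestrae. The reporter reads the Cdkn2a locus, which encodes the cyclin-dependent kinase inhibitor p16INK4a, often used to mark senescent cells.

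General capillary cells made up 9.33% of the endothelial cells (95% Clopper-Pearson interval 7.14 to 11.9%) and 4.24% of all cells. The share differed between libraries, with 52 of 457 endothelial cells (11.4%, 8.62 to 14.7%) in library 1 and 5 of 154 (3.25%, 1.06 to 7.41%) in library 2. No cell barcode was shared by both libraries. Median depth was 4862 UMIs per general capillary cell (2568 to 36800), against 5378 in Car4-high and 4126 in Vwf-high cells. Rates below are UMIs of a gene per 10000 UMIs of all cells of a class, with exact 95% Poisson intervals; intervals cover counting error only, since cells of one sort are not independent animals.

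The class is a range of scores bounded by cuts, and whether it forms a separate cluster was not tested. The Car4 score of the members had a median of 0.61 and ran from 0, in 11 cells with no UMI of Car4, Ednrb or Kitl, to 1.91; the nearest Car4-high cell was at 2.01. In all, 10 members had a Car4 score of 1.5 or more and 51 Car4-high cells had one below 2.5. On the endothelial score the nearest member lay at 2.03 and the nearest cell outside at 1.90. The mean of Gpihbp1, Kit and Sema3c equalled Vwf or exceeded it by less than 0.5 in 16 members. On the other side, 3 Vwf-high cells lay within 0.5. The nearest member was at 0 and the nearest Vwf-high cell at -0.06. In 2 members, both with markers of another lineage as given below, Gpihbp1, Kit, Sema3c and Vwf were all undetected. They entered the class on a tie at 0. All of Gpihbp1, Kit and Sema3c were detected in 39 of the 57 cells, and Vwf was undetected in 24.

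**Figure D1:**
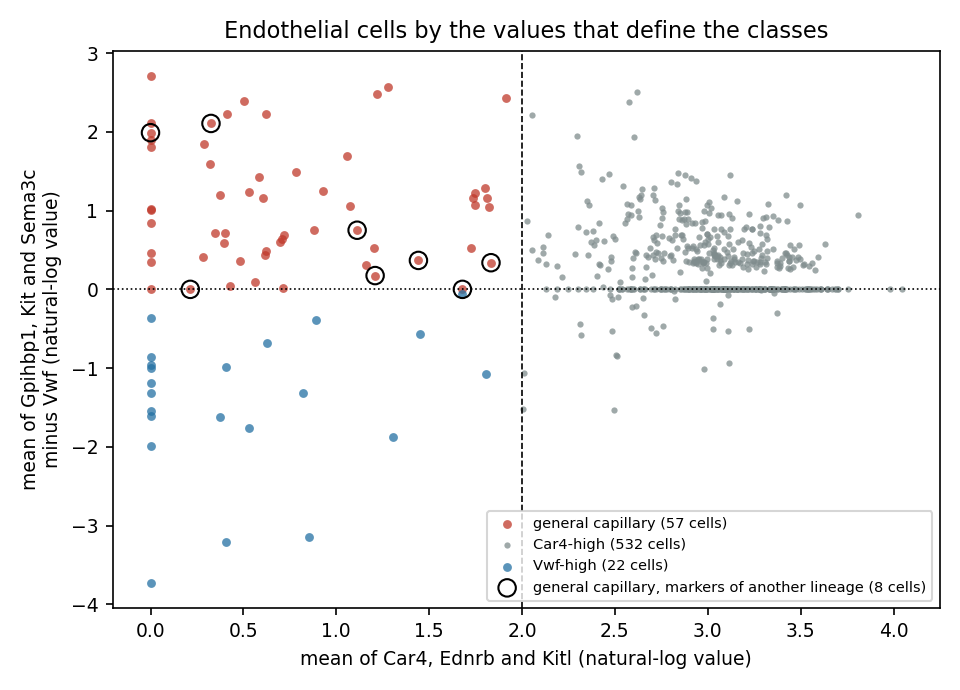
Each of the 611 endothelial cells by its Car4 score (mean natural-log value of Car4, Ednrb and Kitl, horizontal) and the mean of Gpihbp1, Kit and Sema3c minus Vwf (vertical), coloured by class; the dashed line is the cut at 2 and rings mark 8 members with markers of another lineage. General capillary cells spread over the whole range from 0 to 1.91 and Car4-high cells begin at 2.01.

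A few deep members also carried markers of other lineages, and they weigh on every rate. With 2 or more markers of a non-endothelial lineage at 2 or more UMIs each (Scgb1a1 left out, since it was detected in 249 of 532 Car4-high cells), or 3 or more lymphatic markers, 8 of 57 general capillary cells (14%, 6.26 to 25.8%) were marked. The same criterion marked 13 of 532 Car4-high cells (2.44%, 1.31 to 4.14%) and 0 of 22 Vwf-high cells (0 to 15.4%). These 8 cells held 27.3% of the UMIs of the class. The deepest, with 36800 UMIs, held 1408 Sftpc and 175 Sftpa1 UMIs, the surfactant genes of alveolar type 2 cells, beside 76 UMIs of Ptprb. A cell of 14483 UMIs held 184 UMIs of Ager, a gene of alveolar type 1 cells, and one of 11367 UMIs held 74 Lyz2 and 55 C1qa UMIs, genes of macrophages. A cell of 11097 UMIs, the only one of the 8 in library 2, held 639 UMIs of Ccl21a and 28 of Mmrn1, both lymphatic genes. The others held smooth muscle genes (292 Tagln, 245 Acta2), haemoglobin genes (1462 Hbb-bs), platelet genes (6 Pf4) or the fibroblast gene Dcn (19 UMIs). The criterion that marked these 8 was set after the data had been seen. A first criterion, which kept Scgb1a1 and had no lymphatic markers, marked 12 of 57 general capillary cells (21.1%). It marked 102 of 532 Car4-high cells (19.2%) and 1 of 22 Vwf-high cells. The difference in share between general capillary and Car4-high cells thus depended on the criterion. Values of the remaining 49 cells are given beside those of all 57 for the results they move most.

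Sums over the whole marker lists are given as a description, since these lists marked the 8 cells and low sums in the other 49 follow from their removal. Summed rates over the epithelial list were 64.9 in all 57 cells and 6.50 in the 49, against 21.0 in Car4-high cells, where Hopx alone stood at 19.6. The red cell list summed to 49.2 in the 57 and 0.108 in the 49, against 0.309 in Car4-high cells. The mural and smooth muscle list summed to 15.8 and 0.108, against 0.178, and the macrophage and monocyte list to 14.2 and 0.397, against 1.23. The fibroblast list summed to 2.15 and 0.0722, against 0.440, with 5 of its 7 genes at 0 in the 49 cells. The lymphatic list summed to 22.9 and 5.09, against 2.84, with Prox1, Ccl21a, Mmrn1, Reln and Pdpn at 0 in the 49 and Lyve1 making up 4.37. The B cell and plasma cell list summed to 0.787 and 0.181, against 0.468, and the platelet list to 0.892 and 0.253, against 0.350. The T and NK cell list was at 0.0262 and 0.0361, against 0.140, the neutrophil list at 0.0525 and 0.0361, against 0.0250, and all 3 mesothelial genes were at 0 in the general capillary cells, against 0.00312 in Car4-high cells.

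The markers that the choice of cells did not use were high in general capillary cells relative to Car4-high cells, and not relative to Vwf-high cells. Ptprb, an endothelial tyrosine phosphatase that acts on the TIE2 receptor, had 19.8 UMIs per 10000 (18.4 to 21.2) in general capillary cells, against 4.04 (3.82 to 4.26) in Car4-high and 26.4 (23.4 to 29.6) in Vwf-high cells. Its value per cell ran from 0 through a median of 20.4 to 77.9, with UMIs in 53 of 57 cells and in all 49 of the unmarked ones. Cd93, a C-type lectin receptor of vessel walls, had 11.9 (10.8 to 13.1), against 1.72 (1.58 to 1.87) in Car4-high and 13.2 (11.2 to 15.6) in Vwf-high cells. Plvap had 11.5 (10.4 to 12.6), against 2.15 (1.99 to 2.32) in Car4-high and 15.5 (13.3 to 18) in Vwf-high cells. Tek, which encodes TIE2, had 5.38 (4.67 to 6.17), against 1.25 (1.13 to 1.38) and 7.71 (6.16 to 9.53). Aplnr, the apelin receptor, was sparse, with 0.945 (0.662 to 1.31), against 0.137 (0.0998 to 0.184) and 0.816 (0.373 to 1.55). At least 3 of these 5 genes were detected in 51 of 57 general capillary cells, 89 of 532 Car4-high cells and 22 of 22 Vwf-high cells.

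These genes were low in the 733 non-endothelial cells, where Ptprb stood at 0.0712, Plvap at 0.0960 and Tek at 0.0745 (median depth 6448 UMIs). The source of those UMIs was not tested. After thinning every cell to 2500 UMIs, 90.8% of general capillary cells were expected to keep a Ptprb UMI, against 22.5% of Car4-high and 97.5% of Vwf-high cells. For Cd93 the thinned shares were 88.3%, against 12.7% and 95.8%. The markers outside the definition thus stood higher than in Car4-high cells and not higher than in Vwf-high cells. The defining genes are given as a description: Kit stood at 3.25 in general capillary cells, against 0.562 in Car4-high and 1.36 in Vwf-high cells, Gpihbp1 at 14.6 against 3.98 and 15.6, Sema3c at 12.7 against 3.08 and 9.25, and Vwf at 2.55 against 0.955 and 24.9.

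**Figure D2:**
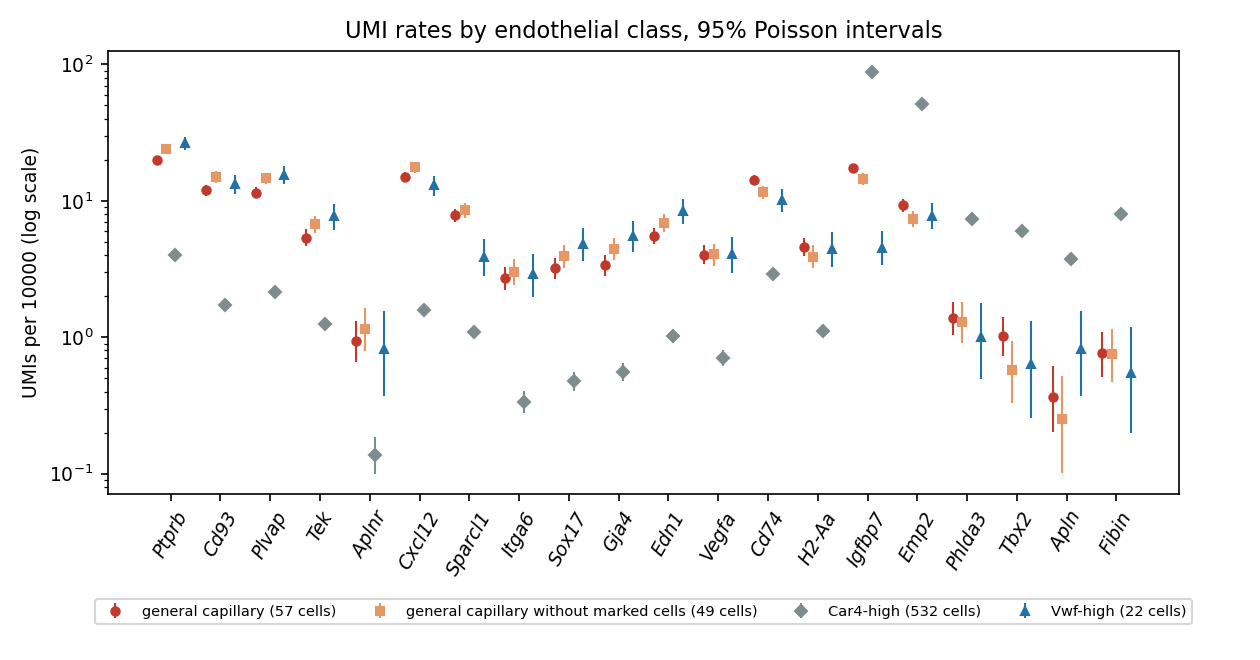
UMI rates per 10000 UMIs (log scale) of 20 named genes in general capillary, Car4-high and Vwf-high cells, and in general capillary cells without the 8 that carried another lineage; bars are exact 95% Poisson intervals. General capillary and Vwf-high rates lie close together for most genes, with Ptprb at 19.8 and 26.4, and far from the Car4-high rate of 4.04.

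Promoter sequences of Kit and Tek, receptor genes with higher rates in general capillary than in Car4-high cells, are shown because vessel genes are often controlled through ETS factor sites. Both come from RefSeq (GRCm38.p6), 250 bases before to 50 bases after a start, and capitals mark AGGAAG on the printed strand; CTTCCT, its match on the other strand, was searched as well. The Kit promoter, on chromosome 5 at chr5:75574737-75575036 (plus strand), held 1 match.
Kit: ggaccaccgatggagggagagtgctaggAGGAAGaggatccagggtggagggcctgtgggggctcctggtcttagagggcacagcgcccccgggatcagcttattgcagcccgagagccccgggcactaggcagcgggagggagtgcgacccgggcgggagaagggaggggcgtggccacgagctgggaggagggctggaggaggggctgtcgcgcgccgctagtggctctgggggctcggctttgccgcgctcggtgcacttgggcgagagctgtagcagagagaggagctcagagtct
The Tek promoter, at chr4:94739039-94739338 (plus strand), held 0 matches.
Tek: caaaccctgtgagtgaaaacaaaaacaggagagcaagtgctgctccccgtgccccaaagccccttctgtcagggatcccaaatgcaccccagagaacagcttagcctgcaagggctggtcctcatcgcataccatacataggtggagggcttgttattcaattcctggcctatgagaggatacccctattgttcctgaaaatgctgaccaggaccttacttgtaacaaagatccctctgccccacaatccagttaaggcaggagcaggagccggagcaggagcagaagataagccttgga
The motif occurred in 35.4% of the 32851 promoters of the table, in 38.4% of its 27025 genes, and in 3 of the 11 genes with an entry among the 15 with the highest ratios. Ptprb, Cd93, Plvap and Gpihbp1 have no entry in the table used here.

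Artery genes were detected in general capillary cells as well. Sox17, a transcription factor of arterial endothelium, had 3.20 (2.66 to 3.82), against 0.474 (0.402 to 0.556) in Car4-high and 4.81 (3.60 to 6.29) in Vwf-high cells, with UMIs in 42 of the 57 cells. The connexin gene Gja4 had 3.39 (2.83 to 4.02), against 0.555 and 5.53, and Edn1, the precursor of endothelin-1, had 5.56 (4.84 to 6.37), against 1.01 and 8.44. Efnb2 had 2.78 (2.28 to 3.36), against 1.71 (1.57 to 1.86) and 4.35 (3.21 to 5.77). The defining large-artery genes were near 0: Gja5 was found as 1 UMI in 1 cell and Bmx in 4 cells. At least 3 of the 12 artery genes were detected in 45 of 57 general capillary cells, 85 of 532 Car4-high cells and 18 of 22 Vwf-high cells. Of the vein genes, Slc6a2 stood at 0.0262, against 0.0156 in Car4-high and 2.54 in Vwf-high cells, Vcam1 at 0.184 against 0.0624 and 2.90, and Prss23 at 1.29 against 0.0718 and 4.26. Summed over the list, artery genes came to 22.0 in general capillary cells, 5.84 in Car4-high and 35.5 in Vwf-high cells, and vein genes to 6.19, 1.93 and 41.2. The vein list holds Vwf, whose rates are given above, so the vein sums follow in part from the selection. How far arterial or venous cells account for these values was not tested.

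Genes at 0.5 or more UMIs per 10000 over all endothelial cells were compared, and one was called higher or lower when its rate differed 2-fold or more after adding 0.1 to each rate. Against the other endothelial cells, 136 of 3659 genes were called higher (3.72%) and 298 lower (8.14%), with a median log2 ratio over all genes of -0.12. Against Car4-high cells alone, 144 were called higher (3.94%) and 306 lower (8.36%), and against the 22 Vwf-high cells 215 higher (5.88%) and 61 lower (1.67%). Without the marked cells, 127 of 3652 genes were called higher than in other endothelial cells (3.48%) and 309 lower (8.46%), of which 105 and 250 were shared with the calls on all cells. Against Car4-high cells these were 156 higher (4.27%) and 326 lower (8.93%). Of the 136 higher genes, 111 had the same sign in each library and 14 had most of their UMIs in 1 cell; of the 298 lower genes, 288 had the same sign in each library. Library 2 held 5 general capillary cells. Most cells under the filter were Car4-high, and the balance of higher and lower calls depended on it. With no gene filter, 800 genes were higher and 464 lower than in other endothelial cells.

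Among called genes on the same side of 0 in each library, the highest ratios against other endothelial cells mixed genes shared by many members with genes of 1 or 2 cells. Cxcl12, a chemokine that binds CXCR4, was detected in 50 of 57 cells at 14.9 (13.7 to 16.2), against 1.58 (1.44 to 1.72) in Car4-high and 13.0 (10.9 to 15.3) in Vwf-high cells. Its value per cell ran from 0 through a median of 9.13 to 84.2, and the rate was 11.3 without the cell holding 159 of its UMIs. Its log2 ratio against other endothelial cells was 2.87, with 2.70 in library 1 and 0.49 in library 2. Sparcl1, a matricellular protein gene, was detected in 43 cells at 7.82 (6.96 to 8.76), against 1.09 in Car4-high and 3.90 in Vwf-high cells. The laminin-binding integrin gene Itga6 had 2.70 in 34 cells, against 0.337 and 2.90, and the phospholipase gene Plcb1 had 2.65 in 43 cells, against 0.371 and 1.81. The metalloprotease gene Adamts1 had 2.31 in 28 cells, against 0.278 and 2.00. Ahnak, Tmsb10, Tns1 and Atf3 were also among the 15 highest of these, with log2 ratios of 2.37, 2.66, 2.58 and 2.46; without the marked cells these were 2.10, 2.43, 2.00 and 2.66.

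Fabp4, Ager, Gsn and S100a6, also among these 15, rested on few cells. Fabp4, a fatty acid-binding protein of capillary and fat tissue, had a log2 ratio of 7.39, but 828 of its UMIs (99.8%) lay in 1 cell of library 1 and its rate without that cell was 0.0552. This cell had 18891 UMIs, a Car4 score of 1.75 and no marked lineage, under a criterion that held no artery list. It held 45 UMIs of Gpihbp1, 42 of Plvap, 159 of Cxcl12 and 20 of Kitl, and 0 of Kit, Sema3c and Vwf. It also held 9 UMIs of Hey1 and 12 of Ltbp4, both on the artery list. Ager, at 8.56 in all 57 cells, was at 0.0361 in the 49 cells, against 0.0156 in Car4-high cells. Gsn was at 5.30 in the 57 cells and 0.108 in the 49, against 0.892, and S100a6 at 6.69 and 0.903, against 0.621 in Car4-high cells. The same held for Ccl8 among the secretory genes, at 5.51 in the 57 cells and 0 in the 49, and for the matrix gene Mgp, at 3.15 and 0.0361.

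The lowest ratios were those of genes of the Car4-high capillary program, some of which the choice of cells used directly. Ednrb, the endothelin B receptor, and Car4, carbonic anhydrase 4, stood at 1.05 and 2.49 in general capillary cells, against 17.1 and 30.9 in Car4-high cells, as selected. Of genes outside the definition, Apln, which encodes the ligand of the apelin receptor, had 0.367 (0.201 to 0.617), against 3.75 (3.54 to 3.97) in Car4-high and 0.816 (0.373 to 1.55) in Vwf-high cells. Fibin had 0.761 (0.510 to 1.09), against 8.02 (7.72 to 8.34) and 0.544, and was detected in 7 of 57 cells, against 454 of 532 Car4-high cells. Tmeff2 had 0.131, against 2.88, Egflam 0.0525 against 1.59, Pcolce2 0.315 against 4.59, Chst1 0.551 against 4.59, and Itgb5 0.315 against 3.04. Lmntd1 had 0.105, against 1.34, and Rgs6 was found as 1 UMI, against 0.917 per 10000. Slitrk6, Sema5a and Lamc3 had 0 UMIs in all 57 cells, a limit of 0.0787 per 10000, against 0.693, 0.683 and 0.602 in Car4-high cells. Genes so low in the class passed the filter on UMIs of other endothelial cells, most of which were Car4-high. Their place among the lowest thus follows in part from the filter. All 11 genes of the Car4-high marker list were called lower in general capillary cells than in other endothelial cells, 3 of them being part of the definition. Of the other 8, at least 3 were detected in 41 of 57 general capillary cells, 532 of 532 Car4-high cells and 13 of 22 Vwf-high cells.

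Against the 22 Vwf-high cells, only genes passing the filter over all endothelial cells, most of which were Car4-high, were compared. The vein genes Slc6a2, Vcam1 and Prss23, which stood higher in Vwf-high cells, fell below that filter and are not ranked here. Among called genes on the same side of 0 in each library, the lowest apart from Vwf itself were Prkd2 (log2 ratio -1.74), Mpdz (-1.65), Ppp6c (-1.63), Lrg1 (-1.61), Pdlim7 (-1.47), Esf1 (-1.41) and Fam162a (-1.37). Lrg1, a secreted glycoprotein that acts on vessel growth, had 2.28 (1.83 to 2.82), against 7.17 (5.67 to 8.93) in Vwf-high cells, and Prkd2 had 0.472 (0.280 to 0.747), against 1.81 (1.11 to 2.80). The highest, beside Fabp4, Ager and Gsn, were Prkab1 (2.64), Hspa1b (2.45), Anxa11 (2.30), Asns (2.22) and Tnrc18 (2.13). Prkab1 had 0.525 (0.321 to 0.811), against 0 UMIs in Vwf-high cells (a limit of 0.272); 46.2% of the Hspa1b UMIs lay in 1 cell.

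The function lists hold genes that the choice of cells used (Gpihbp1, Kit, Sema3c, Ednrb, Kitl, Cldn5, Cdh5, Ramp2 and Vwf), and they are counted below with the rest. Calls of these genes followed from that choice. List counts against other endothelial cells stand beside 3.72% of genes called higher and 8.14% lower over all genes. Those against Vwf-high cells stand beside 5.88% higher and 1.67% lower. With such shares, 1 call in a list of 7 or more genes is not a result about that list. Among receptor and ligand genes of the VEGF, angiopoietin, apelin and Kit list, 4 of the 11 tested were called higher and 4 lower against other endothelial cells (median log2 ratio 0.01, against -0.12 over all genes). Higher were the receptors Tek and Kit, the phosphatase Ptprb and the growth factor Vegfa, which had 4.04 (3.43 to 4.73) in 40 of 57 cells, against 0.702 (0.613 to 0.800) in Car4-high and 4.08 in Vwf-high cells. Lower were the VEGF receptor genes Kdr (6.88, against 25.9 in Car4-high cells) and Nrp1 (6.4, against 18.3), and the ligand genes Apln and Kitl. Kit and Kitl were used in the selection. Of the semaphorin and guidance list, 3 of 13 were higher (Sema3c, Sema3g, Ephb4) and 3 lower (Sema3f, Sema7a, Nrp1), with Sema3g at 2.15 (1.71 to 2.67), against 0.318 in Car4-high cells. Of the lipid list, 3 of 7 were called higher (Fabp4, from 1 cell, Gpihbp1 and Lpl) and Acsl1 lower, with a median of 0.57. Lpl, lipoprotein lipase, had 1.63 (1.25 to 2.09) in 25 cells, against 0.415 (0.347 to 0.492) in Car4-high and 1.72 in Vwf-high cells. Against Vwf-high cells 1 gene of the receptor list, 1 of the guidance list and 3 of the lipid list were called higher, and 0 lower.

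All 4 tested genes of the MHC class II list were called higher than in other endothelial cells, with a median log2 ratio of 1.73 (2.14 without the marked cells), and 0 of 4 were called against Vwf-high cells (median 0.04). Cd74, the invariant chain that escorts class II molecules, had 14.2 (13.0 to 15.4) in general capillary cells, against 2.93 (2.75 to 3.13) in Car4-high and 10.1 (8.28 to 12.1) in Vwf-high cells. It was detected in 40 of 57 cells, and its rate was 11.6 (10.3 to 12.9) in the 49 unmarked cells. H2-Aa had 4.59 (3.94 to 5.33), against 1.11 and 4.44, H2-Ab1 had 4.75, against 1.23 and 8.16, and H2-Eb1 had 3.91, against 1.15 and 3.81. Non-endothelial cells had 82.6 UMIs of Cd74 per 10000, and the part of free RNA from them was not tested. After thinning, 61.0% of general capillary cells were expected to keep a Cd74 UMI, against 15.6% of Car4-high cells. The mix of libraries differed, with 52 of 57 general capillary and 388 of 532 Car4-high cells from library 1. Of 11 class I genes only H2-Q6 was called higher (median -0.03). Of the interferon list, 2 of 16 were higher and 1 lower (median 0.02), among them Ifitm3, an antiviral membrane protein, with 30.9 (29.2 to 32.8) in 56 of 57 cells, against 8.20 (7.89 to 8.52) in Car4-high and 45.8 in Vwf-high cells.

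Leukocyte adhesion genes had the lowest median of the 25 function lists, -0.91, with 4 of 8 called lower and 1 higher than in other endothelial cells, most of which were Car4-high. Against Vwf-high cells 0 of 8 were called in either direction and the median was 0.09. Lower were Icam1 (2.97, against 6.23 in Car4-high cells), Icam2 (9.27 against 26.4), Cd34 (2.36 against 6.78) and Cd47 (7.14 against 16.4), while Cxcl12 was the higher member. Icam2, an adhesion molecule for leukocyte integrins, was detected in all 57 general capillary cells and all 532 Car4-high cells. Of the coagulation list 0 of 7 were higher and 1 lower (median -0.77), the lower gene being Plaur, the urokinase receptor, at 0.525 against 2.56 in Car4-high cells. Of the junction list 2 of 13 were higher (Gja4, Ctnnb1) and 1 lower (Cldn5, used in the selection), with a median of -0.36. Of the matrix list 5 of 12 were higher and 0 lower (median 0.63): Sparc, Sparcl1, Itga1, Itga6 and Mgp, the last resting on marked cells. Of the caveolae list 1 of 10 was higher (Plvap) and 1 lower (Emp2), with a median of -0.06. Against Vwf-high cells 0 junction and 0 caveolae genes were called in either direction. The coagulation list, which holds Vwf, and the matrix list each had 2 higher and 1 lower there.

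Transcription factors split, with 3 of 15 higher (Sox17, Ets1, Foxp1), 4 lower (Tbx2, Tbx3, Foxf1, Meox1) and a median of 0.02. Tbx2, a T-box factor, had 1.02 (0.728 to 1.40), against 5.99 (5.73 to 6.27) in Car4-high cells, and 0.578 in the 49 cells. Of the BMP and TGF-beta list 2 of 12 were higher (Bmp6, Id2) and 1 lower (Smad6), with a median of -0.30; Bmp6 had 2.47 (1.99 to 3.02) against 0.674. Of the Wnt list 3 of 7 were higher (Sox17, Lrp6, Ctnnb1) and 2 lower (Rspo3, Tspan12), with a median of 0.64, and of the Notch list 0 of 8 were higher and 1, Mfng, was lower (median -0.05). Of the vessel tone list Edn1 and Pde3a were higher and Ednrb lower, out of 11 (median 0.02). Among stress genes, 3 of 18 immediate early genes were higher (Atf3, Socs3, Egr1; median 0.38) and 0 lower. Of 12 heat shock genes Hspa1a and Hspa1b were higher and Hspb1 lower (8.06, against 26.4 in Car4-high cells; median -0.02). Ribosomal protein genes had a median of 0.79, with 3 of 23 called higher; glycolysis and hypoxia genes had 1 of 13 higher (Vegfa) and a median of 0.19. In all 57 cells 0 of the 3 tested proliferation genes and 0 of the 6 BCL2 family genes were called in either direction (medians 0.39 and 0.00). Against Vwf-high cells 0 genes of the transcription factor, Wnt, Notch, ribosomal protein and proliferation lists were called in either direction. In that comparison 1 gene each of the BMP and TGF-beta, vessel tone, glycolysis and hypoxia, and BCL2 lists was higher. The immediate early and heat shock lists had 2 higher each, and 0 genes of these lists were lower.

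Some list calls changed without the marked cells. Those of Cldn5 (log2 ratio -0.86), Smad6 (-0.97), Ly6c1 (-0.86) and Cdkn1a (-0.72) were lost, and Id2, Mgp and Ccl8 no longer passed the filter. Calls were gained for Sox7 (1.05), Btg2 (1.16), Ier3 (1.09), Stmn1 (1, a proliferation gene) and Rpl32 (1.04) as higher, and for Cxcl16 (-1.73) and Lamc1 (-1.37) as lower. These genes were named after their values were seen. Immediate early genes called higher numbered 5 of 18 and leukocyte adhesion genes called lower 5 of 8, and the medians were 0.92 for the lipid, -1.20 for the leukocyte adhesion and 0.50 for the immediate early list. 

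**Figure D3:**
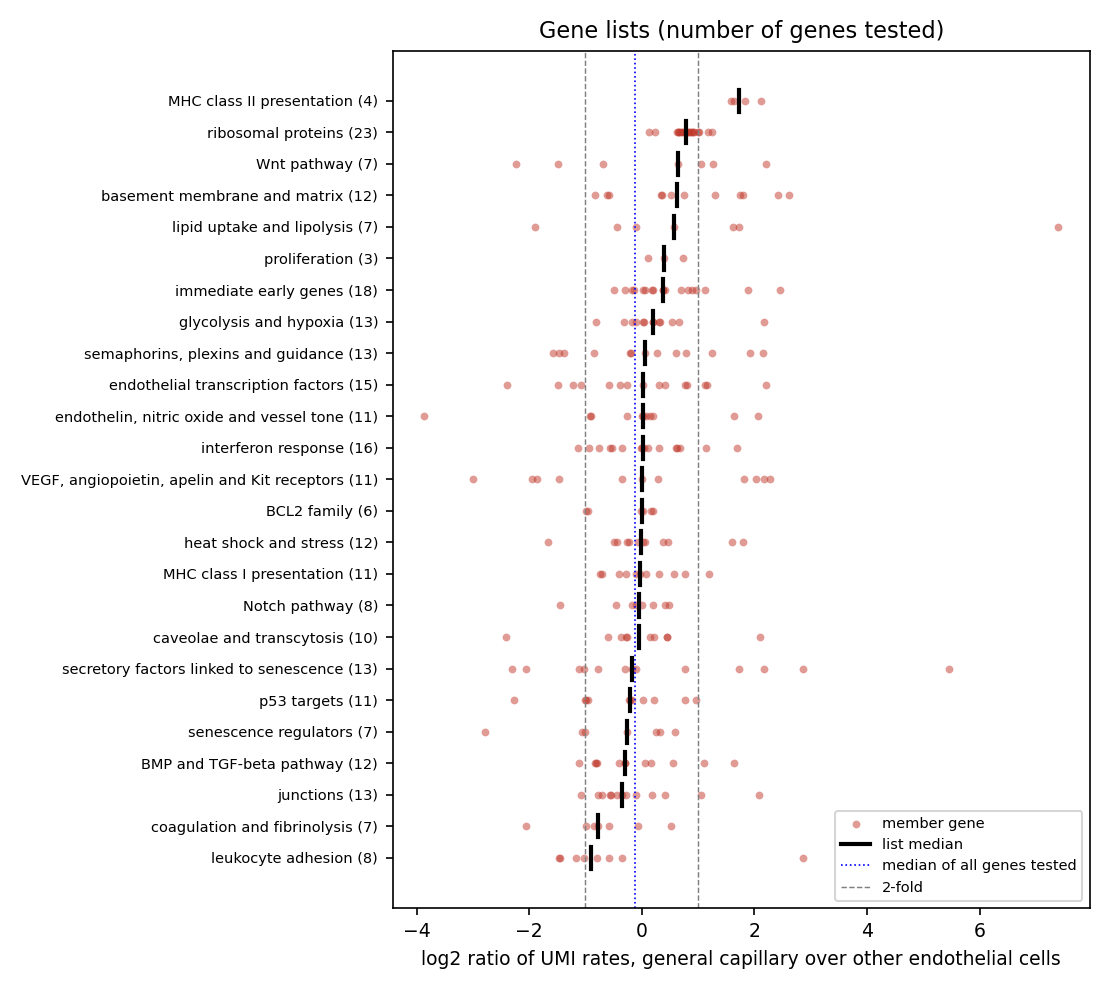
Log2 ratio of UMI rates of general capillary over other endothelial cells for each tested gene of the 25 function lists (points) with list medians (black bars), the median of all genes (dotted, -0.12) and 2-fold limits (dashed). MHC class II genes lie highest, with a median of 1.73, and leukocyte adhesion genes lowest, with -0.91; the point near 7.39 is Fabp4, from 1 cell.

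Transcripts of the reporter locus were sparser in general capillary cells than in Car4-high cells. Cdkn2a was detected in 6 of 57 general capillary cells (10.5%, 3.96 to 21.5%), against 323 of 532 Car4-high cells (60.7%, 56.4 to 64.9%), 3 of 22 Vwf-high cells and 117 of 733 non-endothelial cells (16%). Its rate was 1.26 (0.929 to 1.67), against 2.80 (2.62 to 2.99) in Car4-high cells, but 34 of its 48 UMIs lay in the cell with macrophage genes. The 6 cells held 34, 5, 4, 3, 1 and 1 UMIs, of which the 34 and 1 of the lone UMIs (in the cell with Ager) belonged to marked cells. Without marked cells 13 UMIs in 4 of 49 cells remained, a rate of 0.469 (0.25 to 0.803), beside 0.544 (0.2 to 1.18) in Vwf-high and 0.432 (0.381 to 0.488) in non-endothelial cells. After thinning, 6.61% of general capillary cells were expected to keep a Cdkn2a UMI, against 40.1% of Car4-high cells. All 4 unmarked cells with Cdkn2a had a Car4 score of 1.74 to 1.91, next to the cut; the 41 unmarked cells below 1.5 held 0 UMIs, a limit of 0.144 per 10000, against 1.89 (1.01 to 3.24) in the 8 unmarked cells at 1.5 or more. Those 41 cells had a median of 4097 UMIs and the 8 above 1.5 one of 7844, and the part of depth was not tested.

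Among Car4-high cells, in turn, the Cdkn2a rate was 1.34 (1.03 to 1.72) at Car4 scores of 2 to 2.5, 2.62 (2.33 to 2.93) at 2.5 to 3 and 3.35 (3.07 to 3.65) at 3 or more. Library 2 gave 1 of 51, 20 of 199 and 123 of 282 cells of these bins. In library 1 alone the rates were 1.34, 2.67 and 2.55, with no rise in the last step, and library 2 had 4.08 at scores of 3 or more. In library 1, 40 of the 261 UMIs at scores of 2.5 to 3 lay in 1 cell, so that last step rests in part on it. Cdkn2b, the neighbouring gene for the inhibitor p15INK4b, was detected in 7 of 57 general capillary cells at 0.367 (0.201 to 0.617), against 3.22 (3.02 to 3.42) in Car4-high cells, and at 0.108 (0.0223 to 0.317) in the 49 unmarked cells. The reporter transcript mCherry was found as 8 UMIs in 2 cells, both marked, and in 0 of the 49 others (at most 6.12% of cells with a UMI, taking 3 cells of 49); it was found in 61 of 532 Car4-high cells (11.5%), 1 of 22 Vwf-high and 9 of 733 non-endothelial cells. The mCherry rate was 0.210 (0.0907 to 0.414) in all 57 cells, and in the 49 unmarked cells its exact upper bound was 0.133, against 0.218 (0.170 to 0.276) in Car4-high cells. Both cells with mCherry UMIs were among the 8 marked ones, so the 0 in the other 49 follows from their removal. The Car4-high rate kept its 13 marked cells, so these bounds are not like for like. Cdkn1a, the p53-induced inhibitor p21, was common: 32 of 57 cells held it, at 4.15 (3.53 to 4.85), against 8.66 (8.34 to 8.99) in Car4-high and 1.90 (1.18 to 2.91) in Vwf-high cells. Its log2 ratio to other endothelial cells was -1.01 in all 57 cells, -0.75 in library 1 alone and -0.72 without the marked cells, so the call was lost in both settings. For Cdkn2a the ratio was -1.05 in all 57 cells, -0.71 in library 1 alone and -2.35 without the marked cells. In the 49 unmarked cells the Cdkn1a rate was 5.20 (4.39 to 6.12). The Cdkn1a value per cell ran from 0 through a median of 1.34 to 57.8, and 29 of its 158 UMIs lay in 1 cell.

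The Cdkn2a gene has separate starts for the p19ARF and p16INK4a transcripts, which share their 3' end, so 3' UMIs cannot tell them apart. RefSeq promoters (GRCm38.p6, minus strand) are shown for both, with AGGAAG in capitals as above. The upstream start, chr4:89294570-89294869, held 0 matches.
Cdkn2a upstream start: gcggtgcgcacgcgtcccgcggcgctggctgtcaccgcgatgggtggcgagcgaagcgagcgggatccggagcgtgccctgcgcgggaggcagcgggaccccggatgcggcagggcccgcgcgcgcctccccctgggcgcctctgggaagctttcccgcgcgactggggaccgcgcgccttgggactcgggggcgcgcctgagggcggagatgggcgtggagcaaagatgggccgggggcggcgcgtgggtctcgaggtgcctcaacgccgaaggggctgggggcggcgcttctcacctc
The downstream start, chr4:89282143-89282442, held 2 overlapping matches.
Cdkn2a downstream start: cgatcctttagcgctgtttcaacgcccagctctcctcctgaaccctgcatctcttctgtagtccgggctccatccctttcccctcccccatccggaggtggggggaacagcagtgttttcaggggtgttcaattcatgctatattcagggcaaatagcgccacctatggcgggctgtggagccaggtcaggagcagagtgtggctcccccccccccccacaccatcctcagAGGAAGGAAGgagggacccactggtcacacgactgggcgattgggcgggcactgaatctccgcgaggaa

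**Figure D4:**
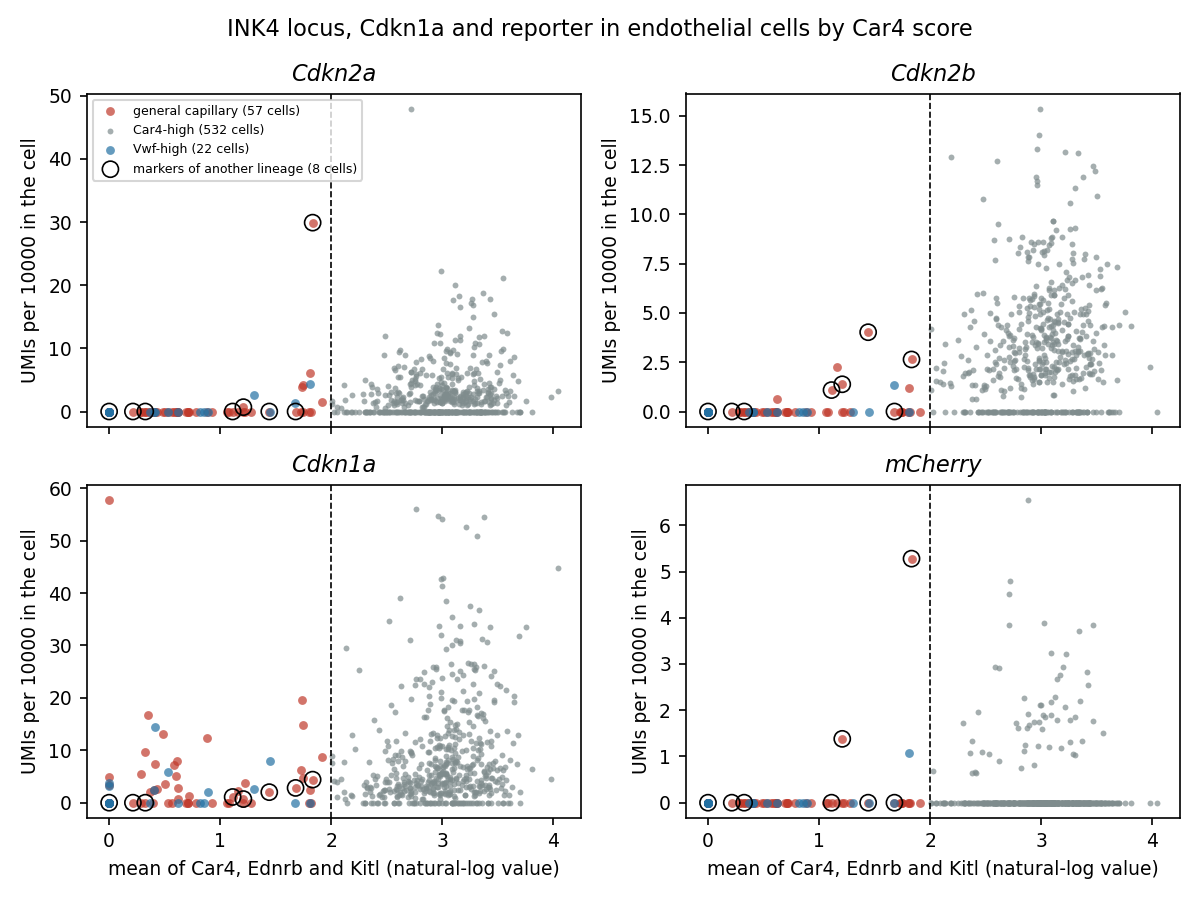
UMIs per 10000 in each endothelial cell (vertical) of Cdkn2a, Cdkn2b, Cdkn1a and mCherry against its Car4 score (horizontal), coloured by class, with the cut at 2 dashed and rings on the 8 marked general capillary cells. Cdkn2a in unmarked general capillary cells appears only at scores of 1.74 to 1.91, whereas Cdkn1a is found across the whole range.

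Among other genes tied to senescence, the calls depended on the class compared. Of the senescence regulator list 3 of 7 were lower than in other endothelial cells (Cdkn2a, Cdkn2b, Cdkn1a) and 0 higher, with a median of -0.27, whereas against Vwf-high cells the same 3 were called higher and 0 lower (median 0.22). Over all genes, 5.88% were called higher and 1.67% lower against Vwf-high cells, which stands beside this count and those below. Against Vwf-high cells the log2 ratios without the marked cells were -0.18 for Cdkn2a, 0.13 for Cdkn2b and 1.40 for Cdkn1a. Of 11 p53 targets 2 were lower (Cdkn1a and Phlda3) and 0 higher, with a median of -0.22, beside 8.14% lower over all genes; without the marked cells Phlda3 was the only one lower and Btg2 was higher (1.16). Against Vwf-high cells 3 of the 11 were higher and 0 lower (median 0.44). Phlda3, which is induced by p53 and restrains AKT, had 1.39 (1.04 to 1.82), against 7.33 (7.04 to 7.64) in Car4-high and 0.998 in Vwf-high cells. Of the secretory factor list 4 of 13 were higher (Cxcl12, Vegfa, Igfbp4, Ccl8) and 4 lower (Igfbp7, Plaur, Timp2, Icam1), with a median of -0.16 (-0.66 without the marked cells). Against Vwf-high cells 6 of 13 were higher and 0 lower (median 0.98). Without the marked cells, 5 of 12 were higher and 0 lower in that comparison (median 0.57). Igfbp7, a secreted binding protein for insulin-like growth factors, had 17.3 (16 to 18.6) in 30 of 57 cells, against 88.6 (87.6 to 89.7) in 531 of 532 Car4-high cells and 4.54 (3.37 to 5.98) in Vwf-high cells.

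Within the 49 unmarked members, genes of the Car4-high program differed along the Car4 score. The bins were chosen after the data had been seen, the score is part of the definition, and no order is tested. Igfbp7 had 2.97 in the 35 cells below 1, 39.1 in the 14 cells from 1 upward, 46.6 in the 51 Car4-high cells below 2.5 and 95.7 in the other 481. In the 14 cells 152 of its 345 UMIs lay in 1 cell, and the rate without it was 27.8. Emp2, which encodes a membrane protein, had 4.67, 13.2, 32.0 and 54.4 over the same bins. Kdr had 4.56, 12.1, 17.2 and 27.3, and Tbx2 had 0.159 and 1.47 in the bins of general capillary cells. In the other direction Ptprb had 27.0, 16.9, 12.6 and 2.60, Tek 7.90, 4.19, 3.79 and 0.824, and Edn1 7.63, 5.32, 3.57 and 0.583. Cd93 had 16.2, 12.1, 6.06 and 0.984. Cd74 had 14.8, 4.53, 11.4 and 1.5, so it did not follow the same course. In the 51 Car4-high cells 195 of its 528 UMIs lay in 1 cell, and the rate without that cell was 7.54. Marked cells were left out of the general capillary bins only, not of the Car4-high bins. In library 1 alone Ptprb had 27.3, 17.2, 12.7 and 2.5, Igfbp7 had 3.06, 42.1, 45.9 and 90.0, and Kdr had 4.73, 13.0, 16.8 and 30.3, in the same order of bins. Tek had 8.07, 3.54, 3.84 and 0.810 there, so its middle bins changed places. Thus the 51 Car4-high cells nearest the cut carried both sets of genes, with Plvap in 31 of them and Emp2 in 51; general capillary cells had a median depth of 4862 UMIs and these 51 cells one of 7773, and the part of cell pairs in 1 droplet was not tested.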

How the data were processed

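Alignment and counting used Cell Ranger 3.0.2 against mm10, per the submitters' processing notes. How the authors filtered cells or removed doublets is not given in the sources used here. Values deposited by the authors are natural-log values, which the numbers themselves show to be ln(1 + 10000 × UMIs / cell total). Back-transformation gave whole UMIs (largest deviation 1.78e-10) for 1344 cells and 15526 genes, and no column of cells was left unused.

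Class rates, exact Poisson and Clopper-Pearson intervals and the expected share of cells with a UMI after drawing 2500 UMIs per cell were computed with Python 3.11.15, numpy 2.4.6 and scipy 1.17.1. Genes with at least 0.5 UMI per 10000 over endothelial cells were compared by the ratio of rates plus 0.1, called at 2-fold. No doublets were removed. Where nothing was counted, the limit given is 3 UMIs or cells over the class total. The calling step was run on simulated counts pooled per class, with changes larger than 2-fold and no spread between cells. It therefore cannot judge calls near 2-fold or calls that rest on 1 cell.

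Genes named are those of the definition and markers, Cdkn2a, Cdkn2b, Cdkn1a and mCherry, the 15 highest and 15 lowest against other endothelial cells with the same sign in each library, 8 and 8 against Car4-high and Vwf-high cells, up to 5 per function list, and marker-list genes; other list members (such as Timp2, Igfbp4, Foxp1 and Meox1) were named after their values were seen. The members, 25 function lists and 15 marker lists were chosen with earlier results of these data known. Alternatives were other cuts, each library alone, other pseudocounts, gene filters and weights, and removal of cells with markers of another lineage.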

Additional observations from a re-analysis of the deposited data

How the results depend on the processing

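No paired analysis was possible because the cells form 1 pooled sample and no test was made. The class held 45 to 61 cells under 6 other cuts or filters and 99 with the Car4 score below 2.5. Calls higher and lower against other endothelial cells (136 and 298) came to 332 and 873 in library 2 alone, 74 and 94 with a pseudocount of 1, 800 and 464 with no gene filter, and 47 and 144 against the unweighted mean of Car4-high and Vwf-high rates; there were 280 higher at a filter of 0.2, and 163 lower with a pseudocount of 0.5 and 123 with the wider Car4 cut. Against Car4-high cells (144 and 306) they came to 342 and 871 in library 2, 82 and 101 with a pseudocount of 1, and 841 and 481 with no filter; 292 were higher at a filter of 0.2, 169 lower with a pseudocount of 0.5 and 148 with the wider cut. Against Vwf-high cells (215 and 61) they came to 807 and 721 in library 2, 73 and 19 with the wider cut, 54 and 8 with a pseudocount of 0.5, 25 and 2 with 1, 535 and 227 at a filter of 0.2, and 1331 and 632 with no filter; 95 were lower without the 12 cells of the first lineage criterion and 94 with cells weighted equally.

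The Cdkn2a rate of 1.26 was 0 in library 2, 0.379 without its top cell, 0.488 without the 12 cells and 0.469 without the 8. Cdkn2b (0.367) was 0 in library 2, 0.122 without the 12 and 0.108 without the 8. Cdkn1a (4.15) was 0.378 in library 2, 3.43 without its top cell and 5.20 without the 8. mCherry (0.210) was 0 in library 2, 0.0541 without its top cell and 0 without the 12 or the 8. With the Car4 score below 1.5 the log2 ratios against other endothelial cells reversed for Fabp4 (-3.92), Ccl8 (-1.85), Acta2 (-3.04) and Tagln (-2.85). Rspo3 reversed in library 2 (0.64), as did the medians of the lipid (-0.58) and matrix (-0.087) lists, and Mgp against the unweighted mean (-0.29). Of 2062 values of named genes under these alternatives, 1546 held, 510 moved and 6 reversed. The cause was not tested. Library 2 held 5 members and 26435 UMIs of the class, which limits every value from it. Removal of the 8 cells was chosen after seeing the data.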
